A study of Mus musculus with 6 samples.

Results

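The 37 autophagy core genes examined here encode the machinery that builds the autophagosome, together with 3 cargo receptors and 1 transcription factor. They are a list of gene symbols, with no threshold on a measured value. All 37 are among the 24940 genes of the deposited exon count table, and all 37 passed the filter on low counts that left 12687 genes for testing. The libraries came from primary hepatic stellate cells, liver pericytes that store vitamin A, isolated from female C57BL/6JBomTac mice, for which the labels name no genetic modification. The 3 libraries labelled OCA A, B and C were made from cells given 10 µM obeticholic acid, a synthetic derivative of a natural bile acid and an agonist of the nuclear receptor FXR. The 3 libraries labelled DMSO A, B and C were made from cells given the same volume of the solvent dimethyl sulfoxide. In both groups treatment began 2 days after isolation and lasted 6 hours, and polyadenylated RNA was sequenced. Nothing in the labels states that replicate libraries stem from different animals or cultures, so the p-values reflect only how much the 6 libraries vary, and that variation may be technical. Levels are given as CPM, exon counts scaled to a common library total with edgeR's TMM factors.

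Autophagy encloses portions of cytoplasm in a growing membrane and delivers them to the lysosome. The ULK kinase complex starts the process, a class III PI3-kinase complex marks the growing membrane, lipid transfer proteins feed it, and a ubiquitin-like conjugation system attaches ATG8 proteins to it, which bind cargo receptors. In hepatocytes FXR is known as a repressor of autophagy genes in the fed state, opposing the activators PPARα and CREB, and in stellate cells autophagy is known for consuming lipid droplets during activation. The comparison of OCA with DMSO therefore asks whether transcripts of these genes fall in stellate cells within 6 hours of an FXR agonist.

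Promoter sequence can hold binding sites of such regulators. The 250 bases before the RefSeq start site (GRCm38.p6) were therefore searched on both strands in the 31 members with an entry. The other 6 were Map1lc3a, Becn1, Atg12, Atg16l1, Rb1cc1 and Pik3c3. The 31 members had 37 windows, and a member was counted if any of its windows held a match. The percentages below are shares of single windows, so the 2 are not strictly alike. The FXR inverted repeat AGGTCANTGACCT was present in none of the 31 and in 0.00609% of all 32851 windows. A match that rare is expected in hardly any set of 31 genes, so its absence does not show that FXR has no site. Elements of PPARα were not searched. The cAMP response element TGACGTCA, which CREB binds, was in Atg16l2 and in 1.55% of all windows. The E-box CACGTG, bound by TFE3 and its relatives among other factors, was in Atg3, Atg5 and Atg7 and in 6.02% of all windows. Its longer form TCACGTGA, which contains it, was in Atg3 and in 0.785% of all windows. The window for Atg7 belongs to a start site 27999 bases downstream of the start of the counted transcript. The lines below show the matched stretches of the other genes with the match in capitals, from chr16:45158731-45158790 (plus strand) for Atg3, chr10:44268279-44268338 (plus strand) for Atg5 and chr7:101302089-101302148 (minus strand) for Atg16l2, the only gene of the 31 with a cAMP response element in this window.
Atg3: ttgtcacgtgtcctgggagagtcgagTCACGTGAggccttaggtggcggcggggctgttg
Atg5: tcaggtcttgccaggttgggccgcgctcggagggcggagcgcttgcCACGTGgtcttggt
Atg16l2: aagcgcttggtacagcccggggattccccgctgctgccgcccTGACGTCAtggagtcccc
The Atg3 stretch holds a second copy of the shorter E-box in lower case near its left end. Such matches describe the letters only and do not show binding.

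Depth, exposure and cell identity were checked first. Totals per library ranged from 12260882 to 16336240 counts. Of 4 genes examined as a check of exposure, Abcb11, the bile salt export pump gene induced by FXR, had 0.181, 0.167 and 0.0976 CPM under DMSO and 4.50, 4.56 and 5.57 CPM under OCA, and Osgin1, another known target, had 73.4, 81.8 and 84.5 CPM under DMSO and 204, 230.3 and 228 CPM under OCA. Both were called higher (log2 fold changes 4.86 and 1.47, edgeR adjusted p = 1.36e-06 and 6.5e-11). Nr1h4, which encodes FXR, was lower (log2 fold change -0.35, edgeR adjusted p = 0.00535) but well expressed, at 68.8, 65.0 and 63.7 CPM under OCA. Nr0b2, the SHP gene, had 0 counts in the DMSO libraries and 0, 1.5 and 2 counts in OCA A, B and C. The 8 stellate markers were all tested and summed to between 1559 and 1939 CPM under OCA and 1850 and 1978 CPM under DMSO. Of these, 1 was called higher (Lhx2) and 1 lower (Reln), 25.0% of the list against 5.20% of all tested genes. The 5 activation markers summed to 1899 to 2272 CPM and 2015 to 2355 CPM, and 0 were called. At an unadjusted edgeR p under 0.05 were 62.5% of the stellate and 40.0% of the activation markers, against 19.0% of all tested genes. Markers of other liver cells were low: 8 hepatocyte markers summed to at most 5.78 CPM in a library, 8 macrophage markers to 11.2, 7 endothelial markers to 9.07, 4 cholangiocyte markers to 7.48 with Krt7 at 0, and 5 lymphocyte markers to 0.230 with Ms4a1 and Nkg7 at 0.

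No autophagy core gene was called as changed. With edgeR's quasi-likelihood test and Benjamini-Hochberg adjustment over all 12687 genes, 0 of the 37 were higher and 0 were lower at an adjusted p under 0.05, against 2.18% and 3.03% of all tested genes. DESeq2 and limma-voom also called 0. At an unadjusted p under 0.05 there were 3 members, the ATG8 gene Map1lc3a and the membrane protein gene Wipi1 with positive and the kinase gene Ulk2 with negative log2 fold changes, which is 8.11% of the set against 19.0% of all tested genes. Of the 37 log2 fold changes, 25 were above 0 and 12 below, with a median of 0.04 against 0.00 for all tested genes. They ran from -0.26 for the protease gene Atg4c to 0.25 for Map1lc3a. The median size of the log2 fold change, its sign ignored, was 0.079 in the set, 0.120 over all tested genes and 0.102 over the 9636 tested genes at or above 10.9 CPM, the mean level of the least abundant member. Among those 9636 genes 6.39% were called in either direction. All 3 OCA libraries lay above all 3 DMSO libraries for Map1lc3a, Wipi1, Atg9a and Optn, 10.8% of the set against 11.6% of all tested genes. They lay below for Ulk2 and Atg101, 5.41% of the set against 11.3%. In bulk RNA, fewer cells of a type and less RNA per cell cannot be told apart.

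**Figure D1:**
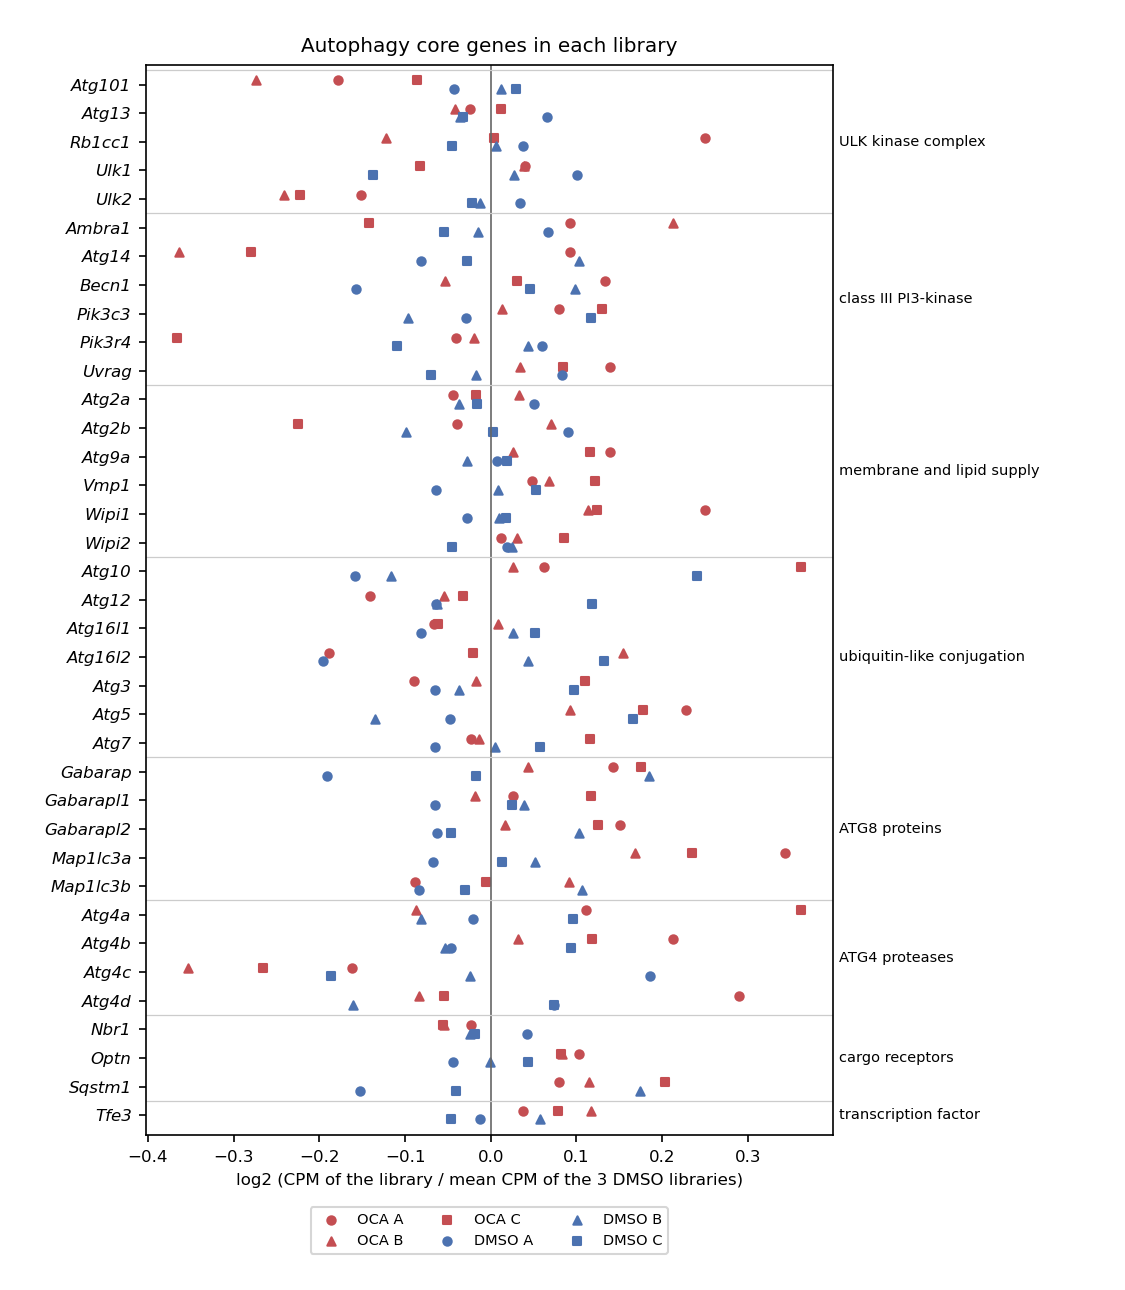
Each point is 1 library, placed by the log2 ratio of its CPM to the mean of the 3 DMSO libraries (horizontal axis), for the 37 genes grouped by role (vertical axis); red is OCA, blue is DMSO, and the shape gives the replicate letter. The groups overlap in most genes, and Map1lc3a and Ulk2 are among the 6 in which they do not.

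The spread between libraries, which may be technical, was small enough to bound the differences between these 2 sets of libraries. The 95% interval of the log2 fold change, from the same edgeR fit, lay inside a 1.5-fold change in both directions for 37 of the 37 members. This held for 73.9% of all tested genes and for 93.2% of those at or above the level of the least abundant member. The lowest bound of any member was -0.54 for Atg4c and the highest was 0.50 for the conjugating enzyme gene Atg10. A 1.3-fold fall lay outside the interval for 34 members, 91.9% of the set against 83.9% of the genes at that level. A 1.2-fold fall lay outside it for 31, 83.8% against 67.8%, and a 1.2-fold rise for 26, 70.3% against 69.4%. Each interval covers 1 gene and is not widened for the number of genes. Leaving out 1 library at a time gave 35 to 37 members inside 1.5-fold.

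**Figure D2:**
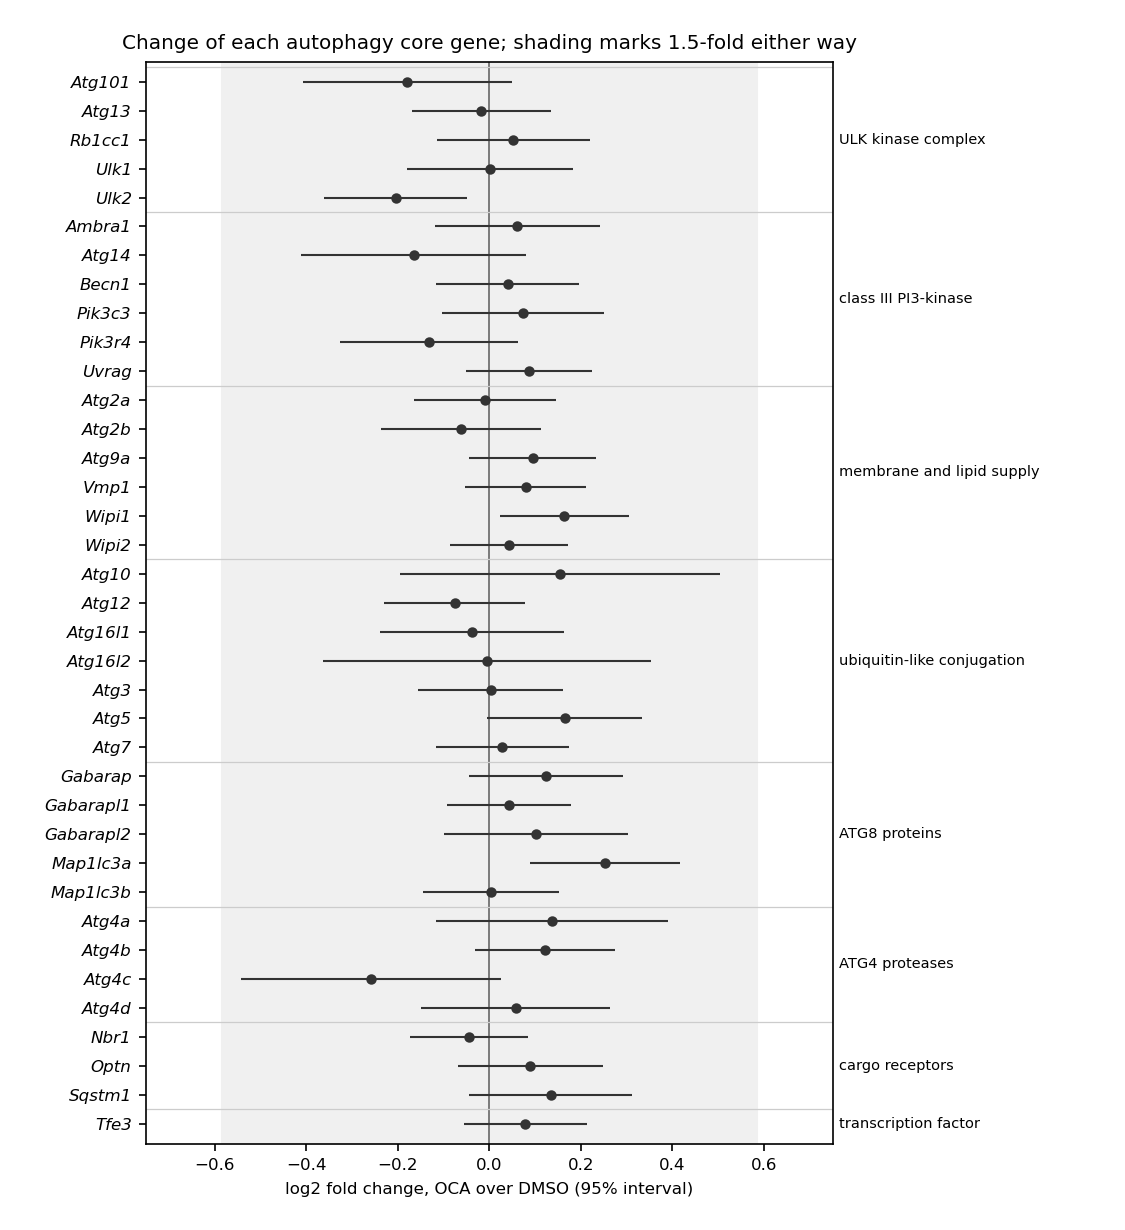
Points are log2 fold changes of OCA over DMSO (horizontal axis) with their 95% intervals from edgeR for the 37 genes grouped by role (vertical axis), and the shading marks a 1.5-fold change either way. Every interval stays within the shading, and those of Map1lc3a, Wipi1 and Ulk2 do not cross 0.

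From hepatocyte work on FXR and CREB, 3 genes were listed here, Atg7, Ulk1 and Tfeb, and their log2 fold changes were near 0. They do not stand for all genes of that work. Atg7, the activating enzyme for both ATG8 and ATG12 (NM_001253718, mm10 chromosome 6, 114643097 to 114860614, plus strand), had 95.1, 95.7 and 105 CPM in OCA A, B and C and 92.3, 96.9 and 101 CPM in DMSO A, B and C. Its log2 fold change was 0.03 (SE 0.07, 95% interval -0.12 to 0.17, edgeR adjusted p = 0.863), and the groups overlapped over most of their range. Ulk1, the kinase that starts autophagosome formation (NM_009469, mm10 chromosome 5, 110784489 to 110810081, minus strand), had 49.4, 49.3 and 45.3 CPM in OCA A, B and C and 51.5, 48.9 and 43.7 CPM in DMSO A, B and C. Both groups had the same mean of 48.0 CPM, with SDs of 2.31 under OCA and 3.99 under DMSO, and the 95% interval of the log2 fold change was -0.18 to 0.18. Tfeb, a master regulator of lysosome genes that is not one of the 37, had 18.1, 23.8 and 20.8 CPM under OCA and 23.8, 22.2 and 19.0 CPM under DMSO, with OCA A the lowest library and OCA B and DMSO A the highest. Its log2 fold change was -0.05 (95% interval -0.33 to 0.23, edgeR adjusted p = 0.874).

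In the ULK kinase complex, 2 of 5 genes had log2 fold changes above 0 and the median was -0.02. Ulk2, the paralog of Ulk1 (NM_013881, mm10 chromosome 11, 61775598 to 61855092, minus strand), had 56.7, 53.2 and 53.9 CPM in OCA A, B and C and 64.5, 62.4 and 62.0 CPM in DMSO A, B and C. Each OCA library was below each DMSO library, by a log2 fold change of -0.20 (SE 0.07) that did not pass the adjusted threshold (edgeR adjusted p = 0.127). With an offset for transcript length in each library the value was -0.11 (edgeR adjusted p = 0.476). Atg101, which binds Atg13 in the complex, had 22.8, 21.4 and 24.3 CPM under OCA and 25.1, 26.1 and 26.4 CPM under DMSO. Its groups also did not overlap, but the log2 fold change of -0.18 (SE 0.11) had an edgeR adjusted p of 0.393. Atg13 and the scaffold gene Rb1cc1 had log2 fold changes of -0.02 and 0.05.

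Among 6 genes of the class III PI3-kinase complex and its regulators, 4 had log2 fold changes above 0 and the median was 0.05. Becn1, the scaffold subunit beclin 1, had 148, 130.3 and 138 CPM under OCA and 121, 145 and 139.7 CPM under DMSO. DMSO A was the lowest library and the other DMSO libraries lay inside the OCA range. The log2 fold change was 0.04 (SE 0.07, edgeR adjusted p = 0.808). Over all its transcripts in GENCODE M21, exons of Becn1 share 3104 of 7065 bases with the opposite-strand gene Cntd1. The counted transcript has only 2045 bases, and how many of these are shared was not determined. No strand setting of the counting is known from the sources used here, so the Becn1 counts may include reads of Cntd1. Pik3r4, the regulatory kinase-like subunit, had 56.2, 57.0 and 44.9 CPM under OCA and 60.3, 59.6 and 53.6 CPM under DMSO, with OCA C alone below the other libraries (log2 fold change -0.13, edgeR adjusted p = 0.471). Atg14, which directs the complex to autophagosome formation, had 34.5, 25.1 and 26.7 CPM under OCA and 30.6, 34.7 and 31.8 CPM under DMSO. OCA B and C were below the DMSO range and OCA A was inside it, and the log2 fold change of -0.17 had an edgeR adjusted p of 0.475. It was -0.32 without OCA A and -0.08 without OCA B. The lipid kinase gene Pik3c3, Uvrag and Ambra1 had log2 fold changes of 0.07, 0.09 and 0.06.

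The 6 genes of membrane and lipid supply had a median of 0.06, with 4 above 0. Wipi1, a phosphoinositide-binding protein of the growing membrane (NM_145940, mm10 chromosome 11, 109573521 to 109611389, minus strand), had 108, 98.5 and 99.2 CPM in OCA A, B and C and 89.3, 91.7 and 92.2 CPM in DMSO A, B and C. All OCA libraries were above all DMSO libraries, with a log2 fold change of 0.16 (SE 0.07) and an edgeR adjusted p of 0.188. Atg9a, the membrane protein of the vesicles that seed the autophagosome, had 104, 95.7 and 102 CPM under OCA and 94.5, 92.2 and 95.3 CPM under DMSO. These groups were separated only narrowly, since OCA B and DMSO C differed by less than the range of either group, and the log2 fold change was 0.09 (edgeR adjusted p = 0.467). Over all its GENCODE M21 transcripts, Atg9a shares 1832 of 5762 exon bases with the same-strand gene Gm29253. The counted transcript has 3841 bases, and how many of these are shared was not determined. The lipid transfer genes Atg2a and Atg2b had -0.01 and -0.06, Wipi2 had 0.04 and the endoplasmic reticulum protein gene Vmp1 had 0.08 on the same scale.

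The 7 ubiquitin-like conjugation genes had a median of 0.00, with 4 above 0. Atg5, which is joined to ATG12 in the conjugate that carries ATG8 to the membrane, had 85.6, 77.9 and 82.6 CPM under OCA and 70.7, 66.5 and 81.9 CPM under DMSO. DMSO C reached the OCA range while DMSO A and B were lower, and the log2 fold change was 0.16 (SE 0.08, edgeR adjusted p = 0.277). It was 0.26 without DMSO C and 0.10 without DMSO B. Atg3, the conjugating enzyme for ATG8 and the gene with the long E-box above, had a log2 fold change of 0.00. Atg16l2, with the cAMP response element, had -0.01. Atg10, Atg12 and Atg16l1 had 0.15, -0.08 and -0.04.

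The 5 ATG8 genes had log2 fold changes from 0.00 to 0.25 with a median of 0.10. Map1lc3a, which encodes LC3A (NM_025735, mm10 chromosome 2, 155276364 to 155278073, plus strand), had 67.4, 59.7 and 62.5 CPM in OCA A, B and C and 50.7, 55.1 and 53.6 CPM in DMSO A, B and C. The groups did not overlap, and means of 63.2 ± 3.90 CPM under OCA and 53.1 ± 2.21 CPM under DMSO (n = 3 each) differed by a log2 fold change of 0.25 (SE 0.08). It had the smallest adjusted p of the set, 0.0706 by edgeR, and passed the threshold without OCA B (log2 fold change 0.29, edgeR adjusted p = 0.0319). With the length offset it was 0.19 (edgeR adjusted p = 0.167). Map1lc3b, which encodes LC3B, the form most used to count autophagosomes, had 115, 130.5 and 122 CPM under OCA and 116, 132 and 120.0 CPM under DMSO. In both groups A was the lowest library and B the highest, and the log2 fold change was 0.00 (95% interval -0.15 to 0.15, edgeR adjusted p = 0.990). Gabarap had 193, 181 and 198 CPM under OCA and 154, 199 and 173 CPM under DMSO, so that the highest and the lowest library were both DMSO libraries (log2 fold change 0.12, edgeR adjusted p = 0.424). With the offset for count density described for Sqstm1 it was 0.03 (edgeR adjusted p = 0.823). Gabarapl1 and Gabarapl2 had 0.04 and 0.10.

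ATG4 proteases cut ATG8 proteins before conjugation and free them again from the membrane. Atg4c, the member with the lowest log2 fold change (NM_175029, mm10 chromosome 4, 99193934 to 99259787, plus strand), had 17.3, 15.2 and 16.1 CPM in OCA A, B and C and 22.1, 19.1 and 17.0 CPM in DMSO A, B and C. OCA A lay just above DMSO C, and the value of -0.26 (SE 0.14) had an edgeR adjusted p of 0.315. It rested partly on single libraries, from -0.35 without DMSO C to -0.15 without DMSO A, and was -0.10 with OCA B and DMSO A both left out. Atg4b, the most abundant of the 4 proteases per length, had 98.1, 86.5 and 91.9 CPM under OCA and 82.0, 81.6 and 90.3 CPM under DMSO, a log2 fold change of 0.12 with overlapping groups (edgeR adjusted p = 0.384). Atg4a and Atg4d had 0.14 and 0.06. Exons of Atg4d over all its GENCODE M21 transcripts share 1405 of 7264 bases with the opposite-strand gene Kri1, while the counted transcript has 3012 bases.

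Cargo receptors tie ubiquitinated cargo to ATG8 proteins. Sqstm1, the receptor p62 (NM_011018, mm10 chromosome 11, 50200152 to 50210820, minus strand), had 709, 726 and 772 CPM in OCA A, B and C and 603, 756 and 652 CPM in DMSO A, B and C. DMSO B lay inside the OCA range and the other DMSO libraries below it, and the log2 fold change was 0.13 (SE 0.09, edgeR adjusted p = 0.416). Sqstm1 passed the threshold without DMSO B (log2 fold change 0.23, edgeR adjusted p = 0.0487). Its deposited counts varied less than the libraries did. Its largest count was 1.11 times its smallest, while the largest library total was 1.33 times the smallest. Sqstm1 ranked 13 among tested genes by counts per base, and in the densest 1% of tested genes the median ratio of DMSO A to DMSO B counts was 1.11, against 1.39 for all tested genes. With an offset for count density, chosen after seeing the data, its log2 fold change was 0.01 (edgeR adjusted p = 0.955). Exons of Sqstm1 over all its GENCODE M21 transcripts share 580 of 3356 bases with the opposite-strand gene Mrnip, while the counted transcript has 2020 bases. Optn, encoding optineurin, had a log2 fold change of 0.09 with groups that did not overlap, and Nbr1 had -0.04. In that annotation, over all transcripts of a gene, 13 of the 37 members share exon bases with another gene, 12 of them with one on the opposite strand.

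Tfe3, a transcription factor of lysosome and autophagy genes, had 128, 136 and 132 CPM under OCA and 124, 130.2 and 121 CPM under DMSO. OCA A lay inside the DMSO range, and the log2 fold change was 0.08 (SE 0.06, edgeR adjusted p = 0.542). RNA levels do not show where the TFE3 protein is in the cell, which is how it is mainly controlled.

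Levels differed far more between the genes than between the treatments. Per kilobase of transcript, Sqstm1 was highest at 348 CPM over the 6 libraries and Atg16l2 lowest at 5.09, a ratio of 68.4. Gabarap (164 CPM per kilobase), Gabarapl1 (101) and Map1lc3b (71.8) followed Sqstm1, so 3 of the 5 ATG8 genes stood near the top, while Map1lc3a was at 56.0 and Gabarapl2 at 34.3. Within families, Atg4b (30.0) was above Atg4d (19.0), Atg4a (11.6) and Atg4c (5.63). Atg16l1 (10.0) was above Atg16l2, and Ulk2 (10.2) and Ulk1 (9.29) did not differ beyond their spread. Of the 36 neighbouring pairs in this order, 28 had overlapping ranges over the libraries. The count ratios above for the densest genes compare DMSO A with DMSO B only. Whether the levels of such genes are understated was not tested.

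**Figure D3:**
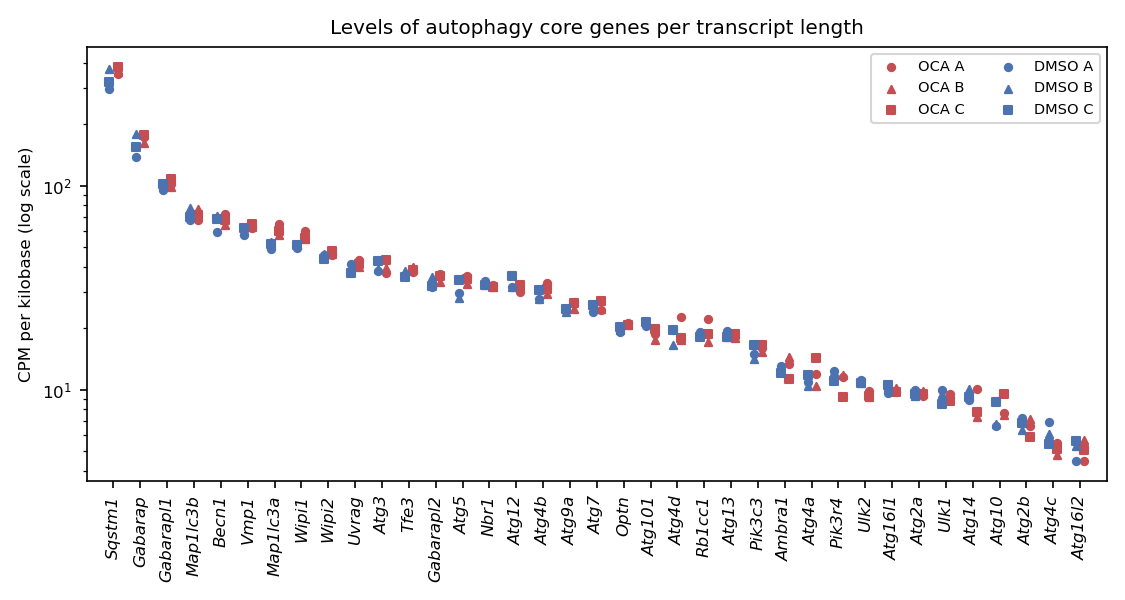
CPM per kilobase of transcript on a log scale (vertical axis) in each library for the 37 genes in descending order of their mean (horizontal axis); red is OCA and blue DMSO, and shapes give the replicate letter. The genes span from 348 to 5.09 CPM per kilobase, while the OCA and DMSO points of a gene lie close together.

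Fold changes varied with transcript length, in the set as in the whole table. Over the 37 members the Spearman correlation of length with log2 fold change was -0.46, and over all 12687 tested genes it was -0.33. These are descriptions across genes that share the same 6 libraries. The median log2 fold change was 0.10 in the shortest eighth of tested genes, up to 1287 bases, and -0.14 in the longest, from 5780.5 bases. The shortest eighth held 4 members, among them Map1lc3a, and the longest held Ulk2, Atg2a, Rb1cc1 and Atg2b. Whether length accounts for the values of Map1lc3a and Ulk2 was not tested. The median length of members was 3012 bases, against 2933 for all tested genes. Over all genes, 276 were called higher and 384 lower, and the length offset gave 378 and 227. Single libraries moved these counts: dropping OCA A left 161 higher genes, and dropping DMSO C left 164. The lower count rose to 758 when OCA B was dropped and fell to 104 for OCA A, 126 for OCA C, 104 for DMSO A, 202 for DMSO B and 230 for DMSO C.

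**Figure D4:**
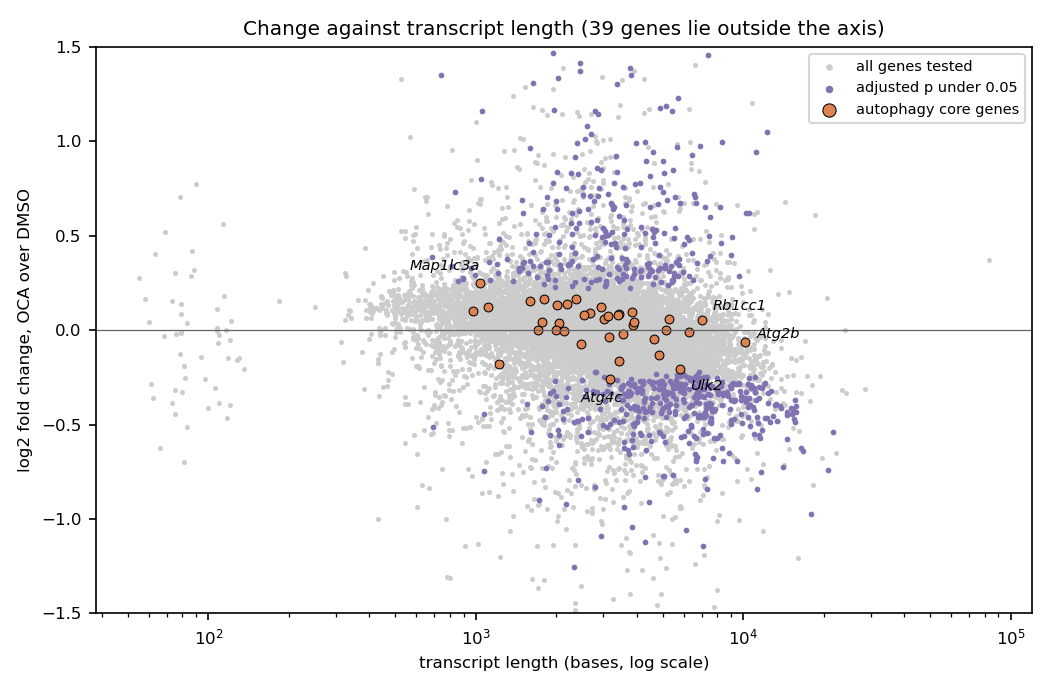
Log2 fold change of OCA over DMSO (vertical axis) against transcript length in bases on a log scale (horizontal axis) for all tested genes in grey, those with an adjusted p under 0.05 in purple and the 37 autophagy core genes in orange; 39 genes lie outside the axis. The orange points stay near 0 and lie within the grey cloud, with Map1lc3a at 0.25 among short transcripts and Ulk2 at -0.20 among long ones.

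Related genes outside the core set were counted in the same way, against 5.20% of all tested genes called in either direction. Of 18 other machinery genes, 1 was called higher, 0 lower and 17 neither (5.56% called), with a median log2 fold change of -0.00. This was Plekhm1, an adaptor for the fusion of autophagosomes with lysosomes (71.8, 64.0 and 66.2 CPM under DMSO and 94.2, 79.6 and 83.1 CPM under OCA). Its libraries did not overlap between groups, with a log2 fold change of 0.34 (SE 0.08, edgeR adjusted p = 0.0142), but the call was lost when OCA A (log2 fold change 0.27, edgeR adjusted p = 0.0962), DMSO B (0.31, 0.0712) or DMSO C (0.33, 0.0693) was dropped. Of 21 selective autophagy receptors and related genes, 1 was higher and 0 lower (4.76% called), with a median of 0.05. Pink1, the kinase that marks damaged mitochondria for removal, had 87.2, 90.3 and 90.5 CPM under DMSO and 108, 98.0 and 114 CPM under OCA, without overlap (log2 fold change 0.26, SE 0.07, edgeR adjusted p = 0.0407). Its call was lost with library totals as the only scaling (log2 fold change 0.25, edgeR adjusted p = 0.0562) and with offsets for density (0.22, 0.0616) or length and density (0.21, 0.0631). Leaving out OCA A (0.24, 0.135), OCA C (0.21, 0.213) or any of DMSO A (0.24, 0.141), DMSO B (0.26, 0.0866) and DMSO C (0.27, 0.107) also ended it.

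The nutrient-sensing list of mTORC1 and AMPK components had 1 gene higher, 2 lower and 28 not called among 31 tested. This is 9.68% called, against 5.20% of all tested genes. The median was 0.01, and Rragb was not tested. Rragd, a GTPase that brings mTORC1 to the lysosome and a known target gene of TFEB and TFE3 (NM_027491, mm10 chromosome 4, 32982998 to 33022180, plus strand), had 163, 178 and 169 CPM under DMSO and 239, 243 and 244 CPM under OCA. All OCA libraries exceeded all DMSO libraries, and its log2 fold change of 0.51 (SE 0.06, edgeR adjusted p = 3.08e-05) was called in each of the 20 alternatives. The 2 lower genes encode subunits of AMPK, the energy-sensing kinase that activates ULK1. Prkaa2, a catalytic subunit, had 29.1, 27.8 and 23.5 CPM under DMSO and 15.9, 18.7 and 19.98 CPM under OCA (log2 fold change -0.56, SE 0.13, edgeR adjusted p = 0.0136). Its groups did not overlap, but the call was lost without OCA A (-0.47, edgeR adjusted p = 0.0724), DMSO A (-0.49, 0.0920) or DMSO B (-0.53, 0.0566) and with the length and density offset (-0.38, 0.101). Prkab2, a regulatory subunit, had 115, 102 and 102 CPM under DMSO and 68.9, 92.9 and 82.6 CPM under OCA (log2 fold change -0.38, SE 0.09, edgeR adjusted p = 0.017). Again no library of one group reached the other, and its call ended when OCA A (-0.27, edgeR adjusted p = 0.101) or DMSO A (-0.32, 0.108) was dropped.

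**Figure D5:**
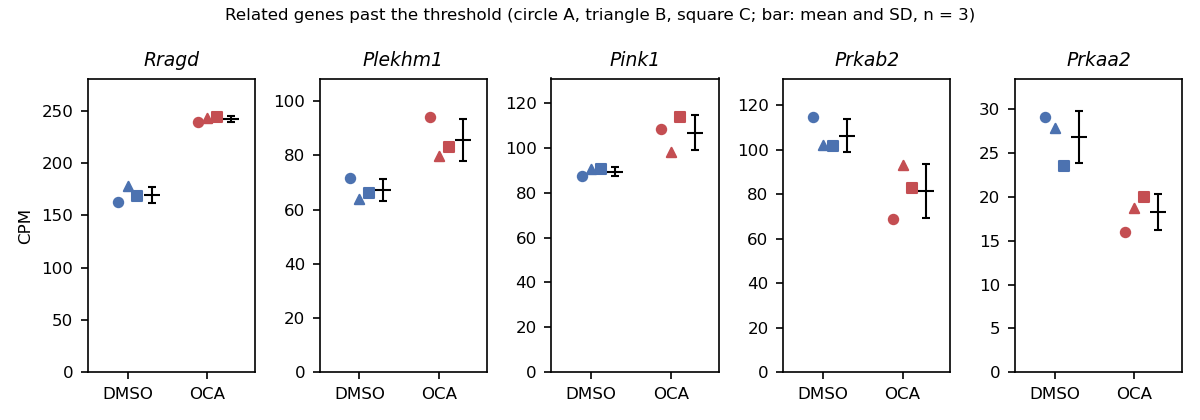
CPM in each library (vertical axis, from 0) for the 5 related genes with an adjusted p under 0.05 in the DMSO and OCA groups (horizontal axis); bars are the mean and SD of n = 3. Rragd, Plekhm1 and Pink1 are higher under OCA, Prkab2 and Prkaa2 lower, and in none of the 5 do the groups overlap.

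Among 17 tested transcription regulators of autophagy genes, 0 were called in either direction by edgeR (against 5.20% of all tested genes), DESeq2 or limma-voom, 2 had an unadjusted p under 0.05 (11.8% against 19.0% of all tested genes), and the median log2 fold change was 0.04; Ppargc1a, with 2 counts in OCA B and 5 in DMSO C, was not tested. Atf4, a stress-response factor and among the most abundant of them, had a log2 fold change of 0.08. Ppara, named after its values were seen, encodes the fasting-state activator PPARα and had 14.5, 14.4 and 16.6 CPM under DMSO and 24.6, 19.6 and 18.7 CPM under OCA. Its groups did not overlap, and its log2 fold change was 0.47 (SE 0.14, edgeR adjusted p = 0.0579), which did not pass the threshold.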

How the data were processed

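RNA from 3 OCA-treated and 3 DMSO-treated samples of mouse hepatic stellate cells was selected for polyadenylation and made into libraries with the NEBNext Ultra kit, per the labels' protocols. The tools STAR and HOMER and the build mm10 appear per the submitters' processing notes. No version is given there, and program settings, the strand setting and the treatment of duplicates and of multiply mapped reads are not stated in these sources. The authors deposited unadjusted exon counts per gene in steps of 0.5, handled as estimated counts, which need not be whole. Between 26.5% and 29.8% of the values of a library were not whole, and they were rounded before each count test. Columns were matched to samples by title, and 0 count columns were left out. Chi-square over degrees of freedom was 4.40 to 8.01 for the 6 pairs of libraries within groups, above the sampling noise of separate counts.

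Genes were tested in R 4.3.3 with edgeR 4.0.16, using filterByExpr, TMM scaling, glmQLFit without robust estimation and the two-sided glmQLFTest on the group alone, with Benjamini-Hochberg adjustment over 12687 genes and a threshold of 0.05. The common biological coefficient of variation was 7.98%. SE is the size of the log2 fold change divided by the square root of F, and the 95% interval uses the t quantile at the total degrees of freedom. CPM are deposited counts on TMM-scaled totals, given per library or as mean ± SD over n = 3. The fit was tested on simulated data with known changes before use. Those counts were drawn independently from its own fitted dispersion, without trends in length or count density. The simulation does not show how the fit performs under such trends. Alternatives were DESeq2 1.42.0, limma-voom (limma 3.58.1), 3 other scalings, no filter, a mean of at least 5 CPM, robust estimation, a replicate block, counts left unrounded, OCA B and DMSO A left out together, a length offset, and leaving out each library. Offsets for count density, alone or with length, were added after seeing the data. Offsets came from a loess curve of each library (span 0.5).

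Members and gene lists were chosen with earlier results of these data known, so counts over a list describe it and do not test it. Values in every library are given for the 12 members with the smallest p and for Atg7, Ulk1, Tfe3, Sqstm1, Map1lc3b and Becn1. From other lists the genes past the threshold are named, or the 2 of highest mean CPM where none passed, with Tfeb and the 4 exposure genes in any case. Promoter windows are from RefSeq and exon overlaps from GENCODE M21, both on the mouse assembly that mm10 names. Exon overlaps use all transcripts of a gene in GENCODE M21 and not the counted transcript alone. Some genes that these rules would name are not reported here.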

Additional observations from a re-analysis of the deposited data

How the results depend on the processing

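Of 20 alternatives, 18 called 0 of the 37 autophagy core genes in either direction. The exceptions left out 1 library: without OCA B, Map1lc3a was called higher (log2 fold change 0.29, edgeR adjusted p = 0.0319), and without DMSO B, Sqstm1 was (0.23, 0.0487), so the count of higher members ranged from 0 to 1. Over the 20 alternatives the adjusted p ranged from 0.0319 to 0.275 for Map1lc3a and from 0.0487 to 0.955 for Sqstm1. The median log2 fold change of the set ranged from 0.03 with the count density offset to 0.08 with the length offset. Of the 37 members 22 kept the sign of their log2 fold change in all 20 alternatives and 15, including Map1lc3b, Ulk1 and Atg7, had the other sign in at least 1. The lowest interval bound of any member was -0.66 and the highest 0.69, both without DMSO C, and 36 members stayed within 1.5-fold when OCA B and DMSO A were both left out.

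Over all genes, the lower count was 703 with no filter on low counts, 605 without OCA B and DMSO A, 227 with the length offset and 248 with the length and density offset. Leaving out each library in turn gave 161 to 363 higher and 104 to 758 lower genes. For the other machinery genes, 1 was lower with upper quartile scaling and with a mean of at least 5 CPM, and 2 with no filter; the leave-one-out range was 0 to 1 higher and 0 to 1 lower. For the selective receptors, 0 were higher with library totals alone and with either density offset. In the same list 1 was lower with DESeq2, upper quartile scaling, library totals alone, no filter, a mean of at least 5 CPM, the replicate block, OCA B and DMSO A left out, and either density offset, and leave-one-out gave 0 to 1 in each direction. For nutrient sensing, 2 were higher with no filter, robust estimation, the replicate block, OCA B and DMSO A left out, and all 3 offsets, and 1 was lower with the length and density offset. Leave-one-out gave 1 to 2 higher and 0 to 4 lower. For the transcription regulators, 2 were higher with the length offset, 1 with no filter, the density offset or the length and density offset, and 0 to 1 with leave-one-out. The causes of these shifts were not tested.

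No pairing by replicate letter was seen. Deviations of same-lettered libraries correlated at 0.00, -0.04 and 0.05, and those of different letters at -0.08 to 0.08. With 3 libraries per group these values cannot exclude pairing, and the labels do not say what the letters stand for. The replicate block gave 306 higher and 508 lower genes, against 276 and 384, and 0 autophagy core genes. Abcb11 has no value under the filter of at least 5 CPM. RNA at 1 time point does not measure protein or autophagic flux. The 95% interval of the log2 fold change was -0.36 to 0.35 for Atg16l2, the least abundant member, and -0.15 to 0.15 for Map1lc3b. For Sqstm1, the most abundant, it was -0.04 to 0.31. How far depth set these widths was not tested.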
